A study of Mus musculus with 4 samples.

Results

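*Dcn Tmc3* neurons were neurons of the mouse dorsal root ganglion (DRG) that carried transcripts of *Dcn*, which encodes the secreted proteoglycan decorin, together with *Tmc3*, *Mymk*, *Itga1*, *Nhlh2*, or *Klhl1*. A cell was a member when it had at least 2 UMIs (unique molecular identifiers, each standing for 1 captured transcript) of *Dcn* and at least 1 UMI of at least 2 of the other 5 genes. A member also had at least 5000 UMIs and 1500 genes, at most 10% mitochondrial UMIs, and a level of *Sprr1a*, a gene that injured neurons switch on, of at most 1 on the natural log scale of UMIs per 10000 with 1 added. The rule took 706 of the 17836 cells that passed the filters on genes, UMIs, and mitochondrial UMIs (3.96%), out of 23691 deposited cells. It took 178 cells of the Male-Sham library, 340 of Female-Sham, 95 of Male-CCI, and 93 of Female-CCI. The levels of these 7 genes chose the members and are given only as a description.

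All mice were heterozygous for *Pirt* EGFPf on a C57BL/6 background. In this allele a farnesylated green fluorescent protein (GFP) stands in place of the *Pirt* reading frame and is driven by the *Pirt* promoter. The mice were 7 to 8 weeks old. They received a sham operation, or both sciatic nerves were constricted by loose ligatures (chronic constriction injury, CCI). L4-5 DRGs of both sides were taken on day 7, those of 5 mice (20 DRGs) were pooled as 1 library, and GFP-positive cells were sorted for 10x 3′ sequencing, so neurons without activity of the *Pirt* promoter, mainly neurons with neurofilament, are under-sampled. There were 2 sham libraries and 2 CCI libraries, 1 of each sex, and values of 4 libraries are given below with sham first (male, then female) and CCI second (male, then female). Brothers and sisters of a litter shared their surgery, so a difference between litters and an effect of CCI cannot be told apart, and in each group the spread between libraries includes sex.

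Peptidergic nociceptors are sensory neurons that signal noxious stimuli and release neuropeptides such as CGRP, encoded by *Calca*, and substance P, encoded by *Tac1*. Many depend on nerve growth factor and carry the heat and capsaicin channel *Trpv1*. Decorin binds collagen fibrils and transforming growth factor beta and is best known as a product of fibroblasts. *Tmc3* encodes a transmembrane channel-like protein, *Mymk* the membrane protein myomaker that lets muscle precursors fuse, *Itga1* a collagen-binding integrin subunit, *Nhlh2* a transcription factor of developing neurons, and *Klhl1* an actin-binding protein of neurons. After a constriction injury, neurons with damaged and with spared axons lie side by side in the same ganglion, and a low *Sprr1a* level does not show that an axon was spared.

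The deposited libraries held 4019 to 8035 cells and 195684124 to 237069156 UMIs each. Members of the 4 libraries had median depths of 32794, 24082, 37106, and 29791 UMIs and summed to 2862305 to 8722405 UMIs, so that a gene with 0 UMIs lay below 0.344 to 1.05 CPM (UMIs per 1000000 of the summed UMIs of a library's members; 3 UMIs, counting error only). In summed UMIs the members of both CCI libraries were shallower than those of both sham libraries. When the highest doublet scores were marked in the numbers that the study removed, 21.3%, 20.3%, 13.7%, and 5.38% of the members were among them (125 of 706), so sham members scored as doublets more often, and a result whose call ended without them is given both ways. Libraries shared 2040 cell barcodes over all pairs, and 26 members had a barcode that also occurred in another library, but no barcode was a member in both. A cell was counted as a neuron when it had more neuronal than glial marker UMIs or met the *Dcn* rule. The comparators were *Sprr1a*-low neurons with at most 1 *Dcn* UMI and at least 2 UMIs of *Col25a1* and 1 of *Slc5a7*, or at least 1 UMI each of *Traf3ip3* and *Kcnv1*. Of the members 110 also met the *Col25a1* *Slc5a7* condition and 23 the *Traf3ip3* *Kcnv1* condition, and they stayed members.

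*Dcn* stood far apart from its level in all other *Sprr1a*-low neurons. Summed over members it was 1955, 2101, 1883, and 2215 CPM, against 10.9, 14.6, 14.8, and 12.1 CPM in the other 12032 *Sprr1a*-low neurons. The median member held 66, 52.5, 64, and 64 *Dcn* UMIs in the 4 libraries, and every member held *Dcn* by the rule, while 18.5% to 23.6% of the other neurons had at least 1 *Dcn* UMI. *Tmc3* was found in 81.5%, 82.1%, 85.3%, and 81.7% of members and in 0.515% to 0.999% of other neurons. Of the 706 members, 371 carried all 5 of the other genes, 149 carried 4, 88 carried 3, and 98 carried 2. Just inside the rule were 13 members with exactly 2 *Dcn* UMIs. Just outside were 24 cells with 1 *Dcn* UMI that met every other condition and 252 cells with 1 of the 5 genes, and the cells kept out by the 5 genes had a median of 3 *Dcn* UMIs. Members at the *Sprr1a* limit were few, with a highest member at 1.53 UMIs per 10000 and a lowest cell outside at 1.86.

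*Dcn* lies at chr10:97479609-97518143 on the + strand, *Tmc3* at chr7:83584927-83625614 on the + strand, and *Mymk* at chr2:27061636-27072179 on the - strand (GRCm38). *Mymk* was 109, 125, 96.4, and 90.8 CPM in members and 0.313 to 0.515 CPM in other neurons. *Tmc3* was 123, 113, 173, and 168 CPM, *Itga1* was 148, 156, 177, and 192 CPM, *Nhlh2* was 96.3, 106, 113, and 134 CPM, and *Klhl1* was 95.01, 92.2, 106, and 106 CPM. These values describe the choice of cells and carry no test.

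Genes outside the rule had a like pattern in these cells, which is again a description, since the cells were chosen by their transcripts. Ranked by the lowest of the 4 within-library ratios of members to other neurons, the leading genes were *Cdk1*, *Prrx2*, *Atp2a3*, *Gabrg3*, *Igfbp5*, *Creb5*, *Adora2b*, *Adcy7*, and *Plpp3*. *Cdk1*, best known as the kinase that drives cells into mitosis, was 52.7, 51.9, 52.8, and 67.1 CPM in members and 0.193, 0.408, 0.552, and 0.662 CPM in other neurons, ratios of 95.7 to 273. *Prrx2*, a homeobox transcription factor, was 63.9, 65.4, 66.5, and 68.5 CPM, with ratios of 66.9 to 89.9. *Atp2a3*, a calcium pump of the endoplasmic reticulum, was 106, 111, 82.4, and 73.7 CPM, with ratios of 65.9 to 80.1. The remaining leaders included *Gabrg3*, a GABA-A receptor subunit, with ratios of 18.3 to 21.8, *Igfbp5*, a secreted binding protein of insulin-like growth factors, with 16.7 to 24.3, and *Adora2b*, an adenosine receptor, with 14.5 to 23.5. At the other end were *Synpr*, *Ctxn3*, *Kcnip4*, *Tmem233*, and *Rarres1*. *Synpr*, a synaptic vesicle protein, was 34.5, 23.3, 14.8, and 6.64 CPM in members and 192, 181, 158, and 156 CPM in other neurons. *Tmem233* was 99.7, 65.6, 35.1, and 3.14 CPM in members against 529, 413, 530.0, and 417 CPM, and its low levels in members were themselves mostly UMIs of doublet-scored cells in sham, 68.9% and 92.7% of them in the male and the female library.

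Set beside the *Col25a1 Slc5a7* neurons (164 cells outside the members), *Adora2b*, *Gm525*, and *Atp2a3* led in members, with *Gm525* at 79.3, 86.3, 77.1, and 78.96 CPM in members and 0, 1.16, 0, and 0 CPM in *Col25a1 Slc5a7* neurons. *Pou4f3*, *Pcp4l1*, and *Paqr9* were lower in members. *Pou4f3*, a POU-domain transcription factor of sensory cells, was 20.9, 22.01, 24.03, and 16.8 CPM in members and 167, 136, 149, and 113 CPM in *Col25a1 Slc5a7* neurons.

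**Figure D1:**
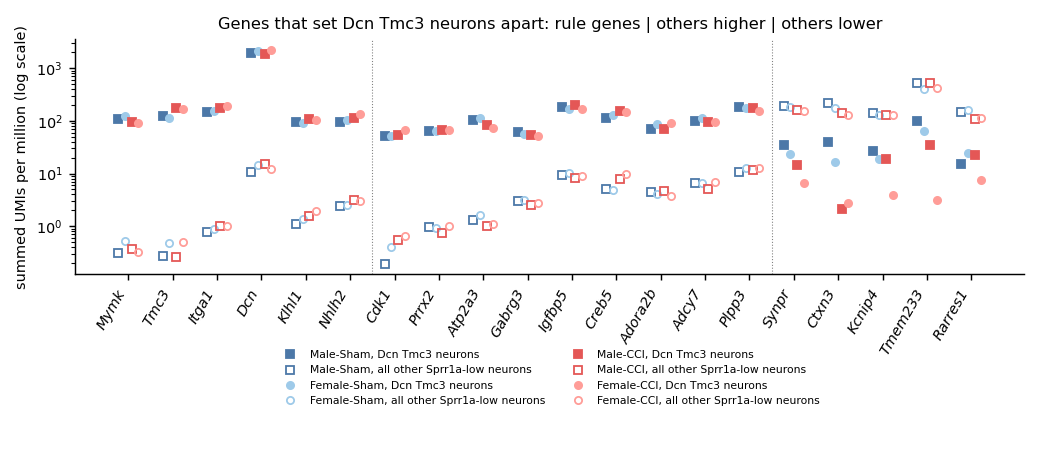
Summed UMIs as CPM (log axis) of genes used by the rule and of genes that were higher or lower in *Dcn Tmc3* neurons, with 1 point for each of the 4 libraries, filled for members and open for all other *Sprr1a*-low neurons. *Dcn* lies at 1883 to 2215 CPM in members and at 10.9 to 14.8 CPM in other neurons, and in every gene shown the members of all 4 libraries lie on the same side of the other neurons.

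Members carried peptidergic markers, at a level like that of other neurons. The 6 peptidergic markers summed to 11760, 11290, 10980, and 11760 CPM in members, with *Calca* at 6695, 6655, 6866, and 6806 CPM, *Tac1* at 3945, 3479, 2960, and 3837 CPM, and *Trpv1* at 503, 534, 492, and 538 CPM. The same sum in all other *Sprr1a*-low neurons was 11680, 12960, 11730, and 13030 CPM, so it placed members among neurons with peptides without setting them apart. The study's PEP2 marker genes other than those of the rule, 44 in number and picked by the study on these same libraries, summed to 13610, 13530, 13710, and 14170 CPM in members and 4293, 4387, 4527, and 4541 CPM in other neurons. Markers of *Mrgprd* nociceptors (NP2-like) summed to 40.1, 28.2, 12.9, and 6.64 CPM in members, below their 132, 97.5, 94.03, and 69.1 CPM in other neurons. Markers of PEP3/4-like neurons summed to 682, 779, 792, and 994 CPM in members and 434, 503, 519, and 619 CPM in other neurons, and those of PEP1-like neurons to 104, 95.04, 116, and 82.1 CPM and 214, 199.9, 233, and 215 CPM. Sums in members were 6.45 to 9.08 CPM for PEP5-like, 18.5 to 23.8 CPM for NP1-like, at most 1.49 CPM for NP3-like, 52.4 to 87.1 CPM for cLTMR-like, and 401 to 454 CPM for neurofilament markers.

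Other cell types of the ganglion left measurable RNA among the members. The 6 satellite glia markers summed to 3672, 3864, 3017, and 2683 CPM, and 78 members (11.0%) held at least as many glial as neuronal marker UMIs. Both CCI libraries were below both sham libraries in this sum. Schwann cell markers summed to 78.8, 92.9, 74.99, and 59.4 CPM. The 10 fibroblast markers summed to 21.2, 26.5, 30.4, and 24.8 CPM, with 2 of the 10 at 0 UMIs in all 4 libraries and *Col1a1*, a defining collagen, at 0, 0.573, 0, and 0.349 CPM. The 8 immune markers summed to 8.81, 18.8, 27.99, and 8.39 CPM, with *Ptprc*, which encodes the common leukocyte antigen CD45, at 0 UMIs in members of all 4 libraries. Markers of endothelial cells summed to 71.7 to 83.4 CPM, those of mural cells to 5.24 to 15.6 CPM, and those of red cells to at most 0.229 CPM.

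Members were a smaller share of neurons in both CCI libraries, which is a description because the *Sprr1a* limit is part of the rule. They made up 4.94% (95% exact interval 4.25 to 5.7) and 5.6% (5.03 to 6.2) of the neurons of the sham libraries and 2.97% (2.41 to 3.62) and 2.32% (1.88 to 2.84) of those of the CCI libraries. Over *Sprr1a*-low neurons alone the shares were 5.04%, 5.82%, 6.53%, and 4.88%, and the groups overlapped. With the rule applied to cells thinned to 5000 UMIs, the shares of all neurons were 2.78%, 3.69%, 1.75%, and 1.52%. An exact permutation test of 2 against 2 libraries cannot go below p = 0.333, so no share was tested, and a lower share of cells that passed dissociation and sorting cannot be told apart from a lower share in the ganglion.

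The *Sprr1a* limit set aside few *Dcn*-rule cells of sham and more of CCI. Of the cells that met the *Dcn* rule at any *Sprr1a* level, 1 of 179 and 2 of 342 lay above the limit in sham, 0.559% and 0.585%, and 18 of 113 (15.9%, exact interval 9.72 to 24.0) and 30 of 123 (24.4%, 17.1 to 33.0) in CCI. Among all neurons 1.97%, 3.79%, 54.5%, and 52.5% lay above it. In both CCI libraries the share among *Dcn*-rule cells was below that among all neurons, a contrast given as a description. The paper reports a loss of subtype markers in injured neurons. A cell that had lost the rule's transcripts counted only among all neurons. These shares therefore cannot tell whether neurons of this type were injured less often. Within the members, 0.562%, 2.65%, 63.2%, and 52.7% still had 1 or more *Sprr1a* UMIs, against 2.53%, 4.9%, 67.3%, and 64.8% of the other *Sprr1a*-low neurons, so members of CCI carried some *Sprr1a* below the limit and members of sham hardly any.

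**Figure D2:**
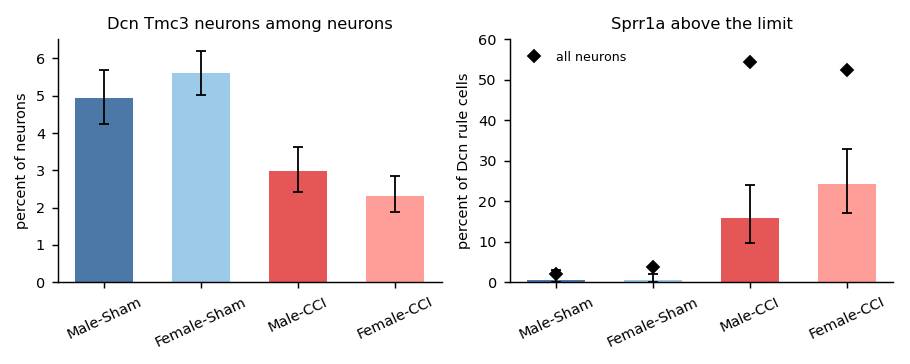
Left, percent of neurons that were *Dcn Tmc3* neurons in each of the 4 libraries with the exact 95% interval. Right, percent of cells meeting the *Dcn* rule that lay above the *Sprr1a* limit, with the exact interval and, as black diamonds, the same percent among all neurons. It was 0.559 and 0.585 in sham and 15.9 and 24.4 in CCI, below 54.5 and 52.5 among all neurons of CCI. A cell that had lost the rule's transcripts counts only among all neurons.

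Members of CCI were then compared with members of sham in UMIs summed per library, by the quasi-likelihood test of edgeR with Benjamini-Hochberg adjustment over all genes tested and with the 7 rule genes left out. A gene was called at an adjusted p under 0.05 and an absolute log2 fold change over 0.5. Of 11973 genes 183 were called (1.53%), 101 higher in CCI (0.844%) and 82 lower (0.685%), and 2101 had an unadjusted p under 0.05. All 183 moved in the same direction in males and in females. The male and female libraries are the replicates of the test, so a gene whose sexes disagreed could hardly be called. This agreement is therefore no replication. The changes were mostly small: 114 of the 183 (62.3%) were under 1 on the log2 scale. Most were shared with other neurons. In all other *Sprr1a*-low neurons, both CCI libraries lay above both sham libraries for 100 of the 101 higher genes. They lay below both for 72 of the 82 lower genes. Over all 11973 genes tested, 4377 lay above and 3765 below. In bulk sums a lower level in each cell and fewer cells with a transcript cannot be told apart. By the same test CCI called 26 of 10074 genes (0.258%) in *Col25a1 Slc5a7* neurons, 638 of 13071 (4.88%) in *Traf3ip3 Kcnv1* neurons, and 847 of 16495 (5.13%) in all other *Sprr1a*-low neurons, but these populations differ in cell number and depth and the counts are not compared. With 1 library left out, which leaves a group with 1 library that is assumed to vary like the other group, 86 to 306 genes were called (86 without Female-Sham and 306 without Male-CCI), and 60, 65, 104, and 62 of the 183 were still called in the same direction without the male and female sham and the male and female CCI library.

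The 10 higher genes named by size of change came with different spreads over cells. *Sez6l*, a transmembrane protein of neurons related to a seizure gene, was 0.315, 0.459, 6.34, and 16.8 CPM. It rose by a log2 fold change of 4.72 ± 0.61 (SE), adjusted p = 0.00279, and it was found in 1.12%, 0.588%, 12.6%, and 12.9% of members, with 70.8% and 83.3% of its CCI UMIs in 5 cells of each library. *Gstm2*, a glutathione S-transferase of detoxification with close relatives in the genome, was 1.101, 1.15, 13.7, and 8.04 CPM (at chr3:107981702-107986453 on the - strand), a log2 fold change of 3.27 ± 0.38 (SE), adjusted p = 0.00053. Its UMIs were also concentrated, with 94.2% and 87% in 5 cells of the CCI libraries. *Gm8797* (at chr3:5750806-5751295 on the + strand), annotated as a protein-coding gene, was spread wider, in 28.1%, 19.1%, 74.7%, and 61.3% of members. It was 9.44, 9.06, 45.4, and 39.1 CPM, a log2 fold change of 2.19 ± 0.16 (SE), adjusted p = 4.21e-06. It was also 11.2, 10.2, 57.5, and 49.3 CPM in other *Sprr1a*-low neurons and 7.104, 4.17, 32.8, and 33.7 CPM in glia, with both CCI libraries above both sham libraries in each of these cell groups. The call of *Sez6l* ended without Female-Sham (adjusted p = 0.0708).

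*Chst2*, a sulfotransferase that acts on glycan chains, was 8.34, 9.63, 24.03, and 41.2 CPM, and both CCI libraries lay above both sham libraries (log2 fold change of 1.81 ± 0.25 (SE), adjusted p = 0.00695). Without members that had any *Sprr1a* UMI, its change was 1.04, adjusted p = 0.102. *Sema6a*, a transmembrane semaphorin of axon guidance, was 2.36, 4.701, 10.8, and 13.6 CPM (log2 fold change of 1.71 ± 0.31 (SE), adjusted p = 0.00872). *Prss12*, a secreted serine protease of neurons, was 5.03, 6.42, 12.9, and 20.6 CPM (log2 fold change of 1.49 ± 0.25 (SE), adjusted p = 0.00559). *Sectm1b*, a secreted and transmembrane protein, was 6.14, 5.62, 15.1, and 15.7 CPM (log2 fold change of 1.38 ± 0.21 (SE), adjusted p = 0.00279). *Onecut2*, a transcription factor of the Onecut family, was 7.55, 10.8, 24.6, and 23.4 CPM (log2 fold change of 1.35 ± 0.19 (SE), adjusted p = 0.00186). It did not keep its direction: over members with 0 *Sprr1a* UMIs its change was -0.73, adjusted p = 0.483, and with doublet-scored members left out it was 2.41, adjusted p = 4.19e-07. The remaining pair, *Irf7* and *Iigp1*, are genes of the interferon response and are described with it. In all other *Sprr1a*-low neurons *Chst2*, *Sema6a*, *Prss12*, *Sectm1b*, and *Onecut2* changed by 1.30, 2.30, 1.49, 1.04, and 0.49. None of the differences between members and all others was called for these genes. Calls ended for *Chst2*, *Sema6a*, and *Prss12* without Male-Sham (adjusted p = 0.0538 to 0.102), *Chst2* without Female-Sham (adjusted p = 0.0895), and *Sema6a* and *Prss12* without Female-CCI (adjusted p = 0.0855 to 0.0932). Over members with 0 *Sprr1a* UMIs the calls also ended for *Sema6a* (1.34, adjusted p = 0.171), *Prss12* (0.78, adjusted p = 0.302), and *Sectm1b* (0.88, adjusted p = 0.192), and with the rule on cells thinned to 5000 UMIs for *Chst2* (0.96, adjusted p = 0.0564), *Sema6a* (1.20, adjusted p = 0.098), *Prss12* (0.73, adjusted p = 0.21), *Sectm1b* (0.98, adjusted p = 0.0662), and *Onecut2* (0.30, adjusted p = 0.812).

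**Figure D3:**
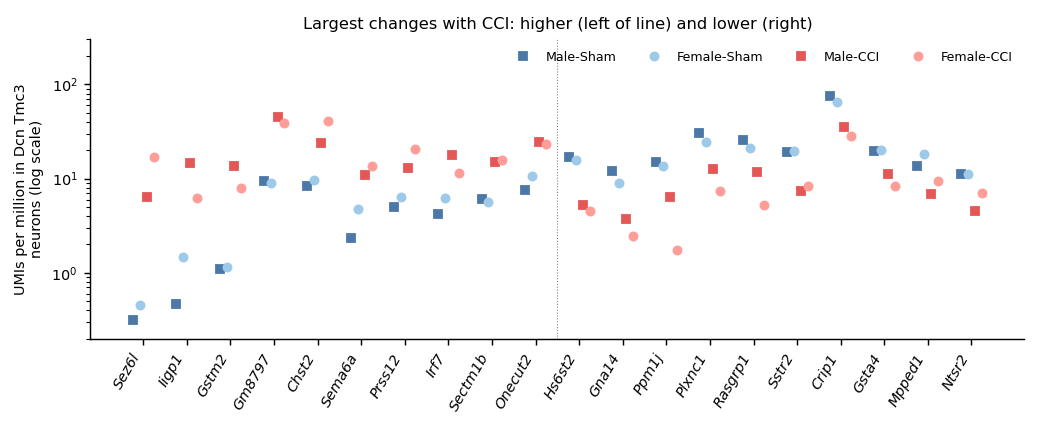
CPM (log axis) of the 20 genes named by size of change in *Dcn Tmc3* neurons, 1 point per library, sham and CCI in different colors. In each gene both CCI libraries lie on the same side of both sham libraries, from *Sez6l* at 0.315 and 0.459 CPM in sham and 6.34 and 16.8 in CCI to *Hs6st2* at 17.2 and 15.9 in sham and 5.28 and 4.54 in CCI.

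Genes that axon injury is known to induce were called in the higher direction only, although every member was below the *Sprr1a* limit. Of 27 tested, 11 were called higher and none lower, against 0.844% of all genes, 16 had an unadjusted p under 0.05, and the median log2 fold change was 0.761 against 0.00142 over all genes tested. The list was chosen with earlier results of these data known. The paper names *Ecel1*, *Sema6a*, *Sox11*, and *Tubb6* among genes high in its CCI-induced clusters of these same libraries. The counts of the list are therefore a description. Over members with 0 *Sprr1a* UMIs, which were fewer, 1 of 22 was called with a median of 0.328, and without doublet-scored members 7 of 25 were called. With a library left out 3 (without Male-Sham) to 19 (without Male-CCI) were called, 6 without Female-Sham and 4 without Female-CCI, none of them lower. *Gap43*, a growth cone protein of regrowing axons, was 889, 889, 1447, and 1532 CPM and was found in at least 99.4% of members of each library. It rose by a log2 fold change of 0.74 ± 0.065 (SE), adjusted p = 4.65e-05. Over members with 0 *Sprr1a* UMIs the change was 0.45, adjusted p = 0.00124, below the fold limit. *Sox11*, a transcription factor of axon regrowth, was 59.3, 69.6, 109.8, and 153 CPM and rose (log2 fold change of 1.004 ± 0.17 (SE), adjusted p = 0.0292). *Tubb6*, a tubulin, was 0.787, 1.38, 5.55, and 8.39 CPM and rose (log2 fold change of 2.58 ± 0.44 (SE), adjusted p = 0.00526). Without doublet-scored members the change of *Sox11* was 0.75, adjusted p = 0.244. Calls ended for *Sox11* and *Tubb6* without Male-Sham (adjusted p = 0.0905 to 0.133), *Sox11* without Female-Sham (adjusted p = 0.0593), and *Tubb6* without Female-CCI (adjusted p = 0.0698).

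*Cdkn1a*, which encodes the cell cycle inhibitor p21, was 35.1, 36.2, 73.4, and 86.99 CPM, a log2 fold change of 1.15 ± 0.11 (SE), adjusted p = 0.000126. Its change was 0.15, adjusted p = 0.884 over members with 0 *Sprr1a* UMIs and 1.18, adjusted p = 0.516 with doublet-scored members left out. *Ifi202b*, a DNA-sensing protein of the interferon-inducible p200 family, had 0 UMIs in both sham libraries and 31 UMIs over both CCI libraries, 0, 0, 5.02, and 4.19 CPM, at least 23.4-fold higher against 3 UMIs over the group (adjusted p = 0.0014). It was also 0, 0, 2.09, and 2.68 CPM in other *Sprr1a*-low neurons. In glia it was 0, 0, 1.31, and 1.78 CPM, below the 3.94 and 5.33 CPM that 3 UMIs make in glia of the CCI libraries. *Npy*, the neuropeptide Y that injured sensory neurons are known to make, had 1 UMI over sham and 24 over CCI, a ratio of 54.4 (exact interval 8.87 to 2240). It was present in 0.562%, 0%, 11.6%, and 12.9% of members (adjusted p = 0.00492). Also called were *Sema6a*, given above, *Flrt3*, an adhesion protein (0.99, adjusted p = 0.00537), *Chl1*, a neural cell adhesion molecule (0.58, adjusted p = 0.0106), *Csf1*, the colony-stimulating factor that acts on microglia and macrophages (0.67, adjusted p = 0.0386), and *Ecel1*, an endopeptidase-like protein of injured neurons (1.70, adjusted p = 0.039). Without doublet-scored members, *Csf1* (0.46, adjusted p = 0.128) and *Chl1* (below the fold limit, adjusted p = 0.00911) were not called. With 1 library left out, calls ended for *Npy*, *Flrt3*, *Chl1*, *Csf1*, and *Ecel1* without Male-Sham (adjusted p = 0.0578 to 0.357), *Npy*, *Chl1*, *Csf1*, and *Ecel1* without Female-Sham (adjusted p = 0.0559 to 0.225), and *Flrt3*, *Chl1*, *Csf1*, and *Ecel1* without Female-CCI (adjusted p = 0.0659 to 0.282). Over members with 0 *Sprr1a* UMIs, *Flrt3*, *Chl1*, and *Csf1* had changes of 0.40, 0.37, and 0.36 and were not called (adjusted p = 0.389, 0.188, and 0.432). On thinned cells the same held for *Cdkn1a* (0.55, adjusted p = 0.109), *Chl1* (0.31, adjusted p = 0.203), and *Csf1* (0.38, adjusted p = 0.323). In all other *Sprr1a*-low neurons *Flrt3*, *Chl1*, *Csf1*, and *Ecel1* changed by 1.33, 0.63, 1.24, and 2.74. *Tubb6* and *Cdkn1a* changed by 1.60 and 0.39 there. Of these genes only *Cdkn1a* had a called difference from members (0.72, adjusted p = 0.000291), and that call ended without doublet-scored cells.

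Other well-known injury genes were not called. *Atf3*, a stress-induced transcription factor, was 239, 219.5, 235, and 224 CPM, with sham as high as CCI (-0.0075, adjusted p = 0.984), and *Jun* was 552, 488, 562, and 558 CPM (adjusted p = 0.54). *Gal*, the neuropeptide galanin, was 1804, 1639, 1672, and 2784 CPM, and only Female-CCI was high (0.36, adjusted p = 0.733), although at least 98.5% of members of each library held it. In all other *Sprr1a*-low neurons *Atf3*, *Jun*, and *Gal* rose by 0.81, 0.44, and 0.77 (adjusted p = 0.00656, 0.0045, and 0.0102). The differences of members from them were -0.84, -0.37, and -0.48 (adjusted p = 0.562, 0.0144, and 0.945). That of *Jun* was below the fold limit, so none was called. *Serpinb1a*, a protease inhibitor, was 5.35, 12.5, 92.9, and 326 CPM, higher in both CCI libraries than in sham but with 66.5% and 71.8% of its CCI UMIs in 5 cells (4.45, adjusted p = 0.3).

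Genes of the interferon response were a second group with only higher calls. Interferons act through STAT and IRF transcription factors, which bind short GAAA-rich elements near the start of their target genes. Of 23 interferon-stimulated and MHC class I genes tested, 4 were called higher and none lower, against 0.844% and 0.685% of all genes, 9 had an unadjusted p under 0.05, and the median log2 fold change was 0.343. Called genes of the list numbered 4 without doublet-scored members and 1 to 5 with a library left out (1 without Male-Sham, 2 without Male-CCI), all higher. The sequences below are promoter stretches of 3 genes that rose and hold the motif GAAANNGAAA (TTTCNNTTTC on the other strand), printed to show where those letters lie. They come from the RefSeq table of 250 bases before to 50 bases after each gene start (GRCm38.p6), the motif was searched in the 250 bases before the start on both strands, and its matches are in capitals.

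The *Ddx60* stretch lies at chr8:61928024-61928086, the *Gbp3* stretch at chr3:142559989-142560024, and the *Ifit3b* stretch at chr19:34607759-34607822, all on the + strand and written 5′ to 3′:
Ddx60: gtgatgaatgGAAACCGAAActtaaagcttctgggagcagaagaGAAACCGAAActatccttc
Gbp3: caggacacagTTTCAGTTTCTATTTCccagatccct
Ifit3b: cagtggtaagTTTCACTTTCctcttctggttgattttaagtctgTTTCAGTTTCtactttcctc

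Each of the 3 stretches held 2 matches, which overlap in *Gbp3*. The motif was present in 978 of 32851 promoters of the table (2.98%), in 281 of 9310 promoters of genes tested (3.02%), in 5 of 73 of genes called higher (6.85%; *Bdnf*, *Chl1*, *Ddx60*, *Gbp3*, and *Ifit3b*), and in 4 of 64 of genes called lower (6.25%; *Gfra4*, *Mrps21*, *Plxnc1*, and *Selenop*), so calls in both directions held it about equally often. Of 18 matched genes of the interferon list, 7 held it (38.89%; *B2m*, *Bst2*, *Ifit1*, *Ifit3*, *Ifitm2*, *Isg15*, and *Stat2*).

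*Ddx60*, an RNA helicase of antiviral sensing, was 1.73, 2.06, 5.02, and 5.94 CPM (log2 fold change of 1.48 ± 0.39 (SE), adjusted p = 0.0471), and *Gbp3*, a GTPase induced by interferon, was 4.72, 5.27, 12.7, and 11.5 CPM (log2 fold change of 1.26 ± 0.24 (SE), adjusted p = 0.01). *Ifit3b*, an antiviral protein with tetratricopeptide repeats and a near-identical neighbor *Ifit3* that makes its UMIs uncertain, was 1.89, 2.18, 11.1, and 7.34 CPM (log2 fold change of 2.17 ± 0.34 (SE), adjusted p = 0.00314). These 3 genes, *Eif2ak2*, and *Ly6e* are outside the list and were chosen after their values were seen. *Eif2ak2*, the RNA-activated kinase PKR, was 18.3, 19.03, 39.1, and 40.5 CPM (log2 fold change of 1.08 ± 0.13 (SE), adjusted p = 0.000655). *Ly6e*, a membrane protein induced by interferon, was 26.3, 35.9, 72.6, and 54.2 CPM (1.02, adjusted p = 0.0245). In all 5 genes both CCI libraries were above both sham libraries. Leaving out a library ended the calls of *Ddx60* and *Gbp3* without Male-Sham (adjusted p = 0.102 to 0.41), *Ddx60* and *Gbp3* without Female-Sham (adjusted p = 0.0802 to 0.3), *Ddx60*, *Gbp3*, and *Ly6e* without Male-CCI (adjusted p = 0.0534 to 0.0964), and *Ddx60* and *Gbp3* without Female-CCI (adjusted p = 0.0524 to 0.2). Without members that had any *Sprr1a* UMI the change of *Gbp3* was 1.15, adjusted p = 0.119.

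Within the list, *Irf7*, a transcription factor that amplifies the interferon response, was 4.25, 6.19, 17.7, and 11.5 CPM (log2 fold change of 1.47 ± 0.26 (SE), adjusted p = 0.00759). *Usp18*, which removes the ubiquitin-like protein encoded by *Isg15*, was 1.57, 4.01, 8.45, and 9.43 CPM (log2 fold change of 1.59 ± 0.37 (SE), adjusted p = 0.0309). *Psmb8*, a subunit of the immunoproteasome, was 45.2, 45.1, 64.7, and 65.7 CPM (0.52, adjusted p = 0.0107), and *Oasl2*, of the oligoadenylate synthetase family, was 48.8, 61.1, 88.2, and 79.7 CPM (0.60, adjusted p = 0.0114). *Iigp1*, an interferon-induced GTPase named by its size of change and not in the list, was 0.472, 1.49, 14.8, and 6.29 CPM (log2 fold change of 3.34 ± 0.52 (SE), adjusted p = 0.00926), and 94.6% and 88.9% of its CCI UMIs lay in 5 cells of each library. *Ifit1* (19.8, 43.1, 123, and 93.3 CPM) and *Ifit3* (5.82, 4.701, 38.3, and 15.4 CPM) were higher in both CCI libraries than in both sham libraries without being called (1.74, adjusted p = 0.328, and 2.40, adjusted p = 0.17). *B2m*, *H2-D1*, and *Bst2* had log2 fold changes of 0.063, 0.053, and -0.062 and were not called. Without doublet-scored members *Psmb8* lay below the fold limit (0.48, adjusted p = 0.0108). Leaving out a library ended the calls of *Irf7*, *Usp18*, *Psmb8*, and *Oasl2* without Male-Sham (adjusted p = 0.0749 to 0.256), *Psmb8* without Female-Sham (adjusted p = 0.147), *Irf7*, *Usp18*, *Oasl2*, and *Iigp1* without Male-CCI (adjusted p = 0.0506 to 0.108), and *Usp18* and *Psmb8* without Female-CCI (adjusted p = 0.0592 to 0.169). Among members with 0 *Sprr1a* UMIs the calls ended for *Irf7* (1.30, adjusted p = 0.0562), *Usp18* (1.60, adjusted p = 0.109), and *Oasl2* (0.49, adjusted p = 0.0862), and on thinned cells for *Irf7* (1.05, adjusted p = 0.0708) and *Oasl2* (0.47, adjusted p = 0.0267). *Psmb8* was also not called by DESeq2 (adjusted p = 0.0532).

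In glia the same list was higher in both CCI libraries too. The list summed to 4061, 4633, 7918, and 6857 CPM in glia cells of the 4 libraries, to 1309, 1398, 1709, and 1566 CPM in members, and to 1287, 1379, 1485, and 1735 CPM in other *Sprr1a*-low neurons. *Irf7* was 1.78, 2.78, 39.4, and 28.4 CPM in glia, *Iigp1* was 8.88, 1.39, 47.3, and 28.4 CPM, and *Gbp3* was 17.8, 25.04, 101, and 47.95 CPM. The glia cells also held RNA of immune cells, whose markers summed to 455, 181, 2293, and 577 CPM there, higher in both CCI libraries. Among the members themselves the satellite glia markers summed to 3672, 3864, 3017, and 2683 CPM and the immune markers to 8.81, 18.8, 27.99, and 8.39 CPM. The part of these cells in the result was not tested. Over members with more neuronal than glial UMIs, 185 genes were called, and *Usp18* and *Psmb8* were no longer among them.

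**Figure D4:**
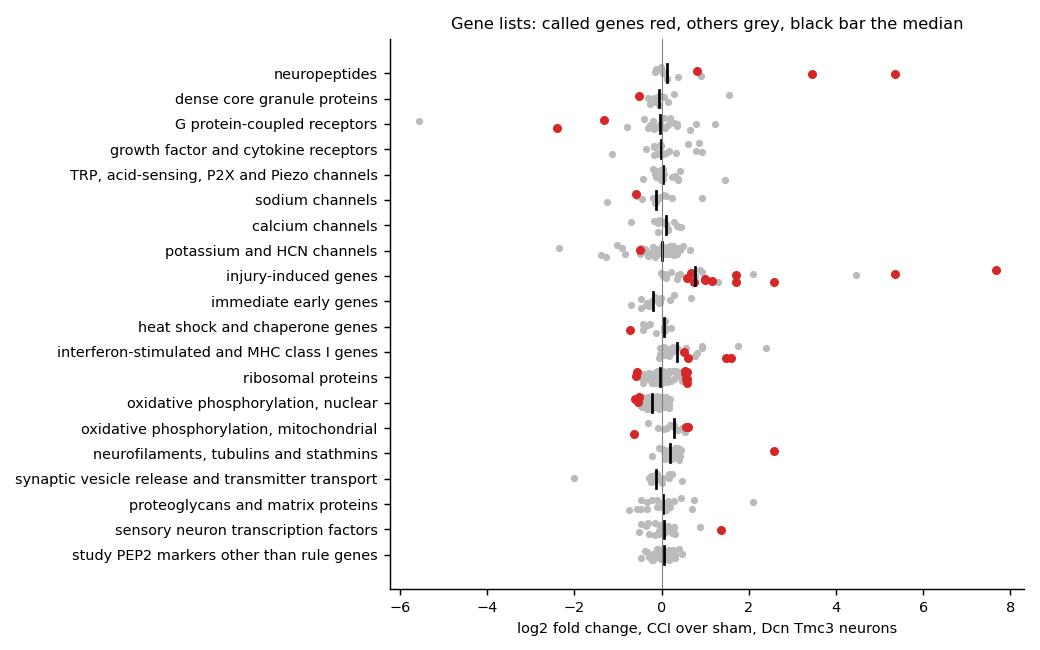
log2 fold change of CCI against sham (x axis) in *Dcn Tmc3* neurons for each tested gene of 20 gene lists (rows), called genes in red and others in grey, with a black bar at the list's median. The median of injury-induced genes lies at 0.761 and that of interferon-stimulated and MHC class I genes at 0.343, against 0.00142 over all genes tested.

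Peptide genes were called in the higher direction. Of 13 neuropeptide genes tested, 3 were called higher (*Npy*, *Ucn*, and *Bdnf*) and none lower, against 0.844% and 0.685% of all genes, with a median log2 fold change of 0.118. *Ucn*, the stress peptide urocortin, was 0.315, 0.459, 3.17, and 6.29 CPM (log2 fold change of 3.44 ± 0.61 (SE), adjusted p = 0.00746), in 0.562%, 1.18%, 4.21%, and 4.3% of members. *Bdnf*, the brain-derived neurotrophic factor, was 49.4, 57.1, 79.2, and 111 CPM (log2 fold change of 0.81 ± 0.16 (SE), adjusted p = 0.0367). It was called in 9 of 16 alternative settings. In *Traf3ip3 Kcnv1* neurons *Npy*, *Ucn*, and *Bdnf* rose by 5.202, 2.74, and 1.072 (adjusted p = 0.000306, 0.0115, and 8.24e-05). In all other *Sprr1a*-low neurons they changed by 1.096, 3.002, and 0.724 (adjusted p = 0.737, 0.000479, and 0.0119). *Bdnf* also rose in *Col25a1 Slc5a7* neurons (1.245, adjusted p = 0.00947). For these genes no difference of members from a comparator that had a value was called. *Calca* (0.025, adjusted p = 0.881) and *Tac1* (-0.14, adjusted p = 0.748) were not called. *Cartpt* (631, 569.8, 531, and 552 CPM) and *Adcyap1* (395, 446, 437, and 492 CPM), which encode the peptides CART and PACAP, were not called. Left-out libraries ended the calls of *Ucn* and *Bdnf* without Male-Sham (adjusted p = 0.157 to 0.2), *Ucn* and *Bdnf* without Female-Sham (adjusted p = 0.0975 to 0.115), and *Ucn* and *Bdnf* without Female-CCI (adjusted p = 0.0529 to 0.102). The change of *Bdnf* was 0.67, adjusted p = 0.0615 over members with 0 *Sprr1a* UMIs, and on thinned cells it was 0.52, adjusted p = 0.669.

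Of 12 proteins of dense core granules, which store and process peptides, none was called higher and 1 lower (0.685% of all genes were lower). *Pcsk1n*, an inhibitor of prohormone convertase, was 4469, 4549, 3316, and 2983 CPM, and both CCI libraries were below both sham libraries (log2 fold change of -0.53 ± 0.064 (SE), adjusted p = 0.000631). *Vgf*, a granule protein that nerve injury is known to raise, was 47.8, 54.8, 113, and 190.4 CPM and was not called (1.53, adjusted p = 0.217). The change of *Pcsk1n* fell below the fold limit without Female-CCI (-0.46). It was also below it over members with 0 *Sprr1a* UMIs (-0.48, adjusted p = 0.00107) and on thinned cells (-0.48, adjusted p = 2.97e-05).

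In the main comparison the calls among receptors were in the lower direction. Of 25 G protein-coupled receptors tested, 2 were called lower and none higher, against 0.685% and 0.844% of all genes. Without doublet-scored members 22 were tested, of which 1 was called higher and 1 lower, and *Lpar3* was not among those tested. *Sstr2*, a somatostatin receptor that dampens nociceptors, was 19.2, 19.8, 7.39, and 8.39 CPM (log2 fold change of -1.33 ± 0.19 (SE), adjusted p = 0.00207), and doublet-scored members held 43.4% and 48% of its UMIs in the male and female sham libraries. *Lpar3*, a lysophosphatidic acid receptor, was 7.08, 7.34, 1.58, and 1.05 CPM (log2 fold change of -2.41 ± 0.39 (SE), adjusted p = 0.00412). Doublet-scored members held 31.1% and 78.1% of its sham UMIs, and 33 of its 64 UMIs in Female-Sham were in 1 cell. *Npy1r*, a receptor of neuropeptide Y, was 219, 255, 298, and 454 CPM and was not called (0.65, adjusted p = 0.428). *Mrgprd*, the receptor that marks another nociceptor class, was 21.6, 9.75, 0, and 0.699 CPM (222 UMIs over sham and 2 over CCI; a sham to CCI ratio of 48.9, exact interval 13.4 to 407) and was not called (adjusted p = 0.163), and 83.2% and 88.2% of its sham UMIs were in doublet-scored members. The call of *Lpar3* was lost without Female-Sham (adjusted p = 0.0709). Its change was -2.05, adjusted p = 0.0624 over members with 0 *Sprr1a* UMIs.

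None of 20 receptors of growth factors and cytokines was called, *Gfra3*, the artemin receptor, at 363, 378, 385, and 361 CPM among them, and 5 had an unadjusted p under 0.05. None of 17 TRP, acid-sensing, P2X, and Piezo channels was called and 1 had an unadjusted p under 0.05. *Trpv1* was 503, 534, 492, and 538 CPM (-0.021, adjusted p = 0.929), and *Piezo2*, the touch channel, was 61.2, 54.2, 98.5, and 47.2 CPM with both CCI libraries on opposite sides of sham. None of 13 calcium channel genes was called. *Cacna2d1*, the subunit that gabapentin binds, was 456, 519, 596, and 664 CPM, past the p limit but below the fold limit (log2 fold change of 0.36 ± 0.081 (SE), adjusted p = 0.024).

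Of 13 sodium channel genes 1 was called. *Scn11a*, the persistent sodium channel of nociceptors, was 91.9, 109.9, 67.6, and 68.5 CPM (log2 fold change of -0.58 ± 0.11 (SE), adjusted p = 0.00814), and its change was -0.26, adjusted p = 0.171 with doublet-scored members left out. *Scn9a*, the channel whose loss abolishes pain sensation, was 319, 306, 350.4, and 324 CPM and was not called. Of 45 potassium and HCN channel genes 1 was called: *Kcnc4*, a fast voltage-gated channel, was 60.9, 58.4, 37.2, and 48.2 CPM (log2 fold change of -0.50 ± 0.12 (SE), adjusted p = 0.0354), at the edge of the fold limit. Without doublet-scored members *Kcnc4* was just short of the fold limit (adjusted p = 0.0185). Calls were lost for *Kcnc4* without Male-Sham (adjusted p = 0.294), *Scn11a* and *Kcnc4* without Female-Sham (adjusted p = 0.188 to 0.193), *Kcnc4* without Male-CCI (adjusted p = 0.235), and *Scn11a* without Female-CCI (adjusted p = 0.0593). The change of *Kcnc4* was -0.34, adjusted p = 0.262 over members with 0 *Sprr1a* UMIs, and on thinned cells it was -0.45, adjusted p = 0.0735.

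The 10 lower genes named by size of change fell in both CCI libraries, and several of them were carried in sham mainly by doublet-scored members. Doublet-scored members held 24.7% and 26.7% of all member UMIs in sham and 14% and 6.31% in CCI. *Hs6st2*, a sulfotransferase of heparan sulfate (at chrX:51387212-51681856 on the - strand), was 17.2, 15.9, 5.28, and 4.54 CPM in members and 85.7, 75.8, 82.9, and 72.6 CPM in other neurons (log2 fold change of -1.74 ± 0.22 (SE), adjusted p = 0.00089). Doublet-scored members held 60.6% and 68.3% of its UMIs in the male and female sham libraries, and without them its change was -0.74, adjusted p = 0.223. *Gna14*, a G protein alpha subunit, was 12.1, 9.06, 3.696, and 2.45 CPM (log2 fold change of -1.74 ± 0.31 (SE), adjusted p = 0.00754), with 67.5% and 86.1% of sham UMIs in doublet-scored members and a change of 0.086, adjusted p = 0.959 without them. *Plxnc1*, a semaphorin receptor, was 30.4, 24.7, 12.7, and 7.34 CPM (log2 fold change of -1.42 ± 0.22 (SE), adjusted p = 0.0036). It had 61.7% and 67% of its sham UMIs there and a change of -0.56, adjusted p = 0.22 without them. *Rasgrp1*, an activator of Ras, was 25.8, 20.98, 11.6, and 5.24 CPM (log2 fold change of -1.41 ± 0.27 (SE), adjusted p = 0.0183), with 76.8% and 80.3% and -0.27, adjusted p = 0.752 for the same measures. These 4 genes were no longer called without doublet-scored members. The calls of *Gna14* and *Rasgrp1* were also lost with a library left out, for *Gna14* and *Rasgrp1* without Male-Sham (adjusted p = 0.102 to 0.157), *Rasgrp1* without Female-Sham (adjusted p = 0.0736), and *Gna14* and *Rasgrp1* without Female-CCI (adjusted p = 0.0648 to 0.0856). *Gna14* was also not called over members with 0 *Sprr1a* UMIs (-2.25, adjusted p = 0.0533).

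The other 6 were still called without doublet-scored members. *Ppm1j*, a protein phosphatase, was 15.1, 13.6, 6.34, and 1.75 CPM (log2 fold change of -1.73 ± 0.34 (SE), adjusted p = 0.0208), and its change without doublet-scored members was -1.75, adjusted p = 0.0158. *Crip1*, a small LIM-domain protein (at chr12:113146316-113153879 on the + strand), was 75.98, 65.7, 35.4, and 28.7 CPM (log2 fold change of -1.14 ± 0.13 (SE), adjusted p = 0.000442), called under all 15 alternatives that gave it a value, and without doublet-scored members its change was -1.18, adjusted p = 6.57e-07. *Crip1* was also 496, 516, 336, and 343 CPM in glia, above its level in members. *Gsta4*, a glutathione S-transferase, was 19.8, 20.2, 11.1, and 8.39 CPM (log2 fold change of -1.03 ± 0.19 (SE), adjusted p = 0.00861), and *Mpped1*, a metallophosphoesterase, was 13.7, 18.2, 6.87, and 9.43 CPM (log2 fold change of -1.02 ± 0.23 (SE), adjusted p = 0.024). *Sstr2* was given above with the receptors. *Ntsr2*, a neurotensin receptor, was 11.2, 11.1, 4.49, and 6.99 CPM (log2 fold change of -1.001 ± 0.25 (SE), adjusted p = 0.0416), and over members with 0 *Sprr1a* UMIs its change was -0.19, adjusted p = 0.828. Of the 82 lower genes, 23.2% were over 2 times as high in other neurons as in members of sham, as were 16.8% of the 101 higher genes and 3.98% of all genes tested. Calls were lost for *Ppm1j*, *Gsta4*, and *Ntsr2* without Male-Sham (adjusted p = 0.0611 to 0.267), *Ppm1j*, *Gsta4*, *Mpped1*, and *Ntsr2* without Female-Sham (adjusted p = 0.074 to 0.309), *Mpped1* and *Ntsr2* without Male-CCI (adjusted p = 0.192 to 0.258), and *Ppm1j*, *Gsta4*, *Mpped1*, and *Ntsr2* without Female-CCI (adjusted p = 0.0623 to 0.078). Calls also ended over members with 0 *Sprr1a* UMIs for *Gsta4* (-0.36, adjusted p = 0.5) and *Mpped1* (-1.19, adjusted p = 0.0818), and on thinned cells for *Ntsr2* (-1.08, adjusted p = 0.0993).

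RNA of glia was lower in the members of CCI. *Apoe*, the apolipoprotein of satellite glia, was 2764, 2867, 2209, and 1886 CPM, past the p limit but below the fold limit (-0.47, adjusted p = 0.00359). The summed satellite glia markers, 3672 and 3864 CPM in sham and 3017 and 2683 CPM in CCI, moved the same way. Over members with more neuronal than glial UMIs, 68 of the 82 lower genes and 88 of the 101 higher genes were still called.

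Ribosomal protein genes were called in both directions. Of 77 ribosomal protein genes tested, 6 were called higher and 2 lower, against 0.844% and 0.685% of all genes, with 44 at an unadjusted p under 0.05 and a median log2 fold change of -0.0349. *Rpl17* was 645, 620.1, 954, and 948 CPM (log2 fold change of 0.58 ± 0.065 (SE), adjusted p = 0.000442). *Rpl41* was 2254, 2418, 1665, and 1526 CPM (log2 fold change of -0.56 ± 0.067 (SE), adjusted p = 0.000595), so genes of the same ribosome moved apart. In glia *Rpl17* was 224, 253, 486, and 478 CPM, and in other *Sprr1a*-low neurons it was 519.6, 491, 750.4, and 749.6 CPM, with both CCI libraries above both sham libraries in each. Ribosomal protein genes have many near-identical pseudogenes, and how the counting split such reads is uncertain.

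Of 69 nuclear genes of oxidative phosphorylation, 3 were called lower and none higher, against 0.685% and 0.844% of all genes, 39 had an unadjusted p under 0.05, and 11 lay above 0, with a median of -0.211. *Ndufa3*, a subunit of complex I, was 214, 256, 162, and 145 CPM (log2 fold change of -0.62 ± 0.097 (SE), adjusted p = 0.0036). *Ndufa1* (-0.52, adjusted p = 0.00492) and *Ndufv3* (-0.55, adjusted p = 0.0107), also subunits of complex I, were the remaining calls. Of 13 genes on the mitochondrial genome, 2 were called higher and 1 lower, with a median of 0.277. *mt-Nd2* was 1392, 1557, 2091, and 2296 CPM (log2 fold change of 0.56 ± 0.072 (SE), adjusted p = 0.000895), *mt-Nd3* rose (0.60, adjusted p = 0.000953), and *mt-Nd4l* fell (-0.64, adjusted p = 0.00412). In other *Sprr1a*-low neurons *Ndufa3*, *Ndufa1*, *Ndufv3*, *mt-Nd2*, *mt-Nd3*, and *mt-Nd4l* changed by -0.60, -0.50, -0.45, 0.65, 0.69, and -0.68. None of their differences from members was called. The nuclear list summed to 45610, 47310, 40640, and 39710 CPM there and to 28460, 28810, 22530, and 23060 CPM in glia. The median member held 3.75%, 4.32%, 4.57%, and 4.87% mitochondrial UMIs, higher in both CCI libraries than in sham. Without doublet-scored members *Ndufv3* was below the fold limit (-0.48, adjusted p = 0.0106), as it was on thinned cells (-0.49, adjusted p = 0.000221). Calls were lost for *mt-Nd2* without Male-Sham by the fold limit (0.49), *Ndufa3*, *Ndufa1*, *Ndufv3*, and *mt-Nd4l* without Female-Sham (adjusted p = 0.0593 to 0.106), *mt-Nd4l* without Male-CCI by the fold limit (-0.49), and *Ndufa1*, *Ndufv3*, and *mt-Nd2* without Female-CCI by the fold limit (-0.42, -0.40, and 0.49).

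Several lists that describe the cells as neurons gave almost no calls. None of 26 genes of synaptic vesicle release was called (8 at an unadjusted p under 0.05), none of 21 proteoglycan and matrix genes (6), and none of 16 immediate early genes (6), with *Fos* at 257, 328, 218, and 207 CPM below the fold limit (-0.47, adjusted p = 0.0368). Of 15 chaperones 1 was called: *Hspa1b*, an inducible heat shock protein with a near-identical copy in the genome, was 151, 196, 114, and 98.2 CPM (-0.72, adjusted p = 0.0188), and its change was -0.73, adjusted p = 0.0628 with doublet-scored members left out. Of 23 cytoskeletal genes only *Tubb6* was called, with 21 of 23 above 0 and a median of 0.19, and of 23 transcription factors only *Onecut2*. None of the 44 PEP2 marker genes of the study outside the rule was called (12 at an unadjusted p under 0.05; median 0.0491). The call of *Hspa1b* was also lost without Female-Sham, Male-CCI, or Female-CCI (adjusted p = 0.062 to 0.134). Its change was -0.38, adjusted p = 0.151 over members with 0 *Sprr1a* UMIs.

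Whether CCI acted differently on members than on other neurons was tested as the difference of the log2 fold changes, with the library as a block. Few genes passed. Against *Col25a1 Slc5a7* neurons 13 of 11614 genes were called (0.112%), 9 higher (0.0775%) and 4 lower (0.0344%), against *Traf3ip3 Kcnv1* neurons 24 of 13418 (0.179%), 11 higher (0.082%) and 13 lower (0.0969%), and against all other *Sprr1a*-low neurons 36 of 15874 (0.227%), 5 higher (0.0315%) and 31 lower (0.195%). The comparisons share the members of all 4 libraries.

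*Nppb* and *Ppm1j* were the named differences called under all 7 alternatives, both against *Traf3ip3 Kcnv1* neurons. *Nppb*, the natriuretic peptide that relays itch, was 18.6, 22.01, 17.95, and 23.1 CPM in members (log2 fold change -0.019), and 6.799, 6.67, 0.2601, and 0.394 CPM in *Traf3ip3 Kcnv1* neurons, where it was lower in CCI. The difference of log2 fold changes was 4.31 ± 0.37 (SE), adjusted p = 5.36e-05. Against *Col25a1 Slc5a7* neurons the difference of *Nppb* was -4.47 (adjusted p = 0.926), and against all other *Sprr1a*-low neurons 0.45 (adjusted p = 0.993), neither called. *Ppm1j* was 15.1, 13.6, 6.34, and 1.75 CPM in members and 8.52, 7.23, 24.2, and 15.8 CPM in *Traf3ip3 Kcnv1* neurons, so it was lower in CCI in the former and higher in the latter (-3.13 ± 0.28 (SE), adjusted p = 6.03e-05). With the other comparators its difference was -0.49 (*Col25a1 Slc5a7*, adjusted p = 0.991) and -1.54 (all others, adjusted p = 0.00443). *Hpca*, the calcium sensor hippocalcin, was 49.9, 54.6, 49.4, and 40.2 CPM in members and 14.9, 14.5, 6.42, and 4.73 CPM in *Traf3ip3 Kcnv1* neurons, a difference of 1.16 ± 0.17 (SE), adjusted p = 0.0133. The call of *Hpca* ended with a library left out, for *Hpca* without Male-Sham (adjusted p = 0.207), and *Hpca* without Female-Sham (adjusted p = 0.0855). By DESeq2 the difference of *Hpca* was not called either (adjusted p = 0.146).

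*Gstm2* was named for a difference against each of the 3 comparators. The difference was 2.86 ± 0.48 (SE), adjusted p = 0.0349 against *Col25a1 Slc5a7* neurons, 2.70 ± 0.48 (SE), adjusted p = 0.0346 against *Traf3ip3 Kcnv1* neurons, and 2.62 ± 0.43 (SE), adjusted p = 0.00407 against all other *Sprr1a*-low neurons. Its UMIs lay in few cells, as given above, and without doublet-scored cells the differences from *Col25a1 Slc5a7* neurons and from all others were 3.51, adjusted p = 0.158, and 3.15, adjusted p = 0.67. With a library left out, the calls ended for *Gstm2* without Male-Sham (adjusted p = 0.0634), and *Gstm2* without Female-CCI (adjusted p = 0.051) against *Col25a1 Slc5a7* neurons and for *Gstm2* without Male-Sham (adjusted p = 0.333), and *Gstm2* without Female-Sham (adjusted p = 0.545) against *Traf3ip3 Kcnv1* neurons. *Timp1*, an inhibitor of matrix metalloproteases, was 0.472, 1.03, 7.92, and 23.4 CPM in members and 3.37, 4.53, 5.995, and 9.85 CPM in all other *Sprr1a*-low neurons (3.24 ± 0.40 (SE), adjusted p = 1.03e-05). Without doublet-scored members the difference was 3.32, adjusted p = 0.0677. *Ly6c1* was 1.57, 2.06, 21.7, and 47.2 CPM in members and 0.495, 0.535, 1.82, and 2.38 CPM in all others (2.12 ± 0.38 (SE), adjusted p = 0.0024). Without doublet-scored cells the difference of *Ly6c1* was 1.69, adjusted p = 0.152. The difference of *Gstm2* from *Col25a1 Slc5a7* neurons was not called by DESeq2 (adjusted p = 0.18), and that of *Timp1* from *Traf3ip3 Kcnv1* neurons was not called without Female-Sham (adjusted p = 0.0551).

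Lower calls against all other neurons included *Serpina11* and *Mrgprd*, whose sham UMIs were largely in doublet-scored members. *Serpina11* had 45 UMIs over sham members and 0 over CCI members, at least 6.61-fold higher in sham, with 84.6% and 84.2% of its sham UMIs in doublet-scored members. Of the genes named above as called in members, *Hs6st2* had a difference of -1.72 against all other neurons (adjusted p = 1.03e-05), where its own change was -0.073. Doublet-scored members held 60.6% and 68.3% of its UMIs in the male and female sham libraries. Without them its change in members was -0.74 and was not called (adjusted p = 0.223). *Crip1* fell by more in members than in all others (difference -0.60, adjusted p = 0.0144). *Gap43*, *Irf7*, and *Gm8797* had differences of -0.14, 0.029, and -0.16 against all others (adjusted p = 0.839, 1.0, and 0.972), which did not pass the test. *Sox11* rose by less in members than in all others (-0.48, adjusted p = 0.0289), below the fold limit and so not called. Without doublet-scored cells the differences of *Serpina11* and *Mrgprd* were not called (adjusted p = 0.474 and 0.122). DESeq2 called neither difference (adjusted p = 0.0588 and 0.234).

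**Figure D5:**
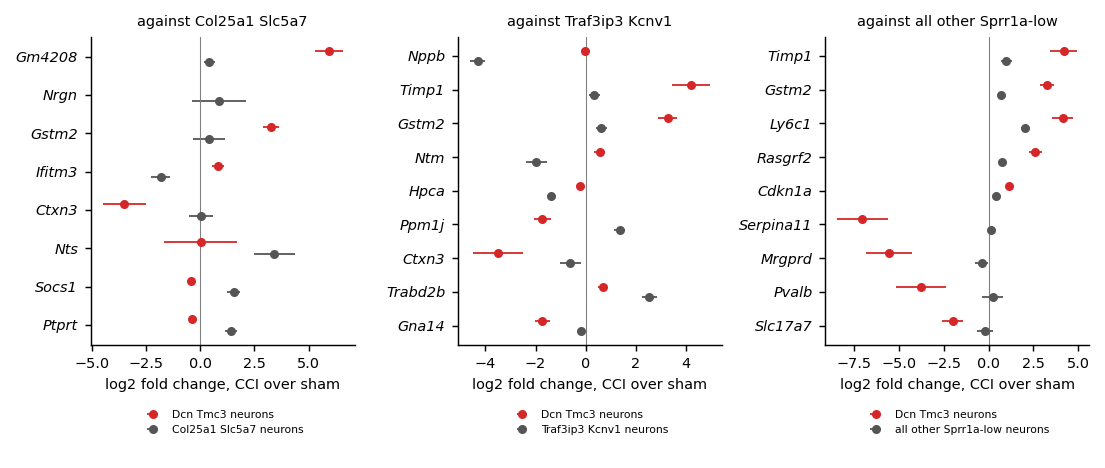
log2 fold change of CCI against sham with its SE in *Dcn Tmc3* neurons (red) and in the comparator (grey) for the named genes whose CCI effect differed, in 1 panel each for *Col25a1* *Slc5a7*, *Traf3ip3* *Kcnv1*, and all other *Sprr1a*-low neurons; *Nrgn* has no red point because it did not pass the filter on low counts in members alone. *Nppb* lies near 0 in *Dcn Tmc3* neurons and far below 0 in *Traf3ip3 Kcnv1* neurons, a difference of 4.31.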

How the data were processed

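Single-cell libraries of 2 sham and 2 CCI pools were analyzed. The authors aligned reads to mm10 with Cell Ranger (2.1.1 in the submitters' processing notes, 3.0.2 in the matrix headers) and deposited UMI counts of 31053 genes per called cell, neither normalized nor filtered further. No read was realigned. The members and lists were chosen with earlier results of these data known. UMI counts of members were summed per library and compared with edgeR 4.0.16 (R 4.3.3; filterByExpr, TMM, robust quasi-likelihood test, Benjamini-Hochberg adjustment), with DESeq2 1.42.0 as an alternative. CPM are UMIs per 1000000 of the summed UMIs. Differences between populations were fitted with the library as a block. Doublets were scored with Scrublet in scanpy 1.11.5 and marked in the study's numbers (3731 cells), since its own threshold found 201, but kept. Glia had at least 10 times more glial than neuronal marker UMIs. Genes named are the 10 called higher and 10 called lower with the largest change that had a mean of at least 10 CPM in the higher group, up to 5 per direction of each difference by the same limit, and of each list up to 4 called genes and the 3 of highest level; others were chosen after their values were seen, and some that the rule takes are not reported here. The tests were checked on simulated counts. For CCI against sham edgeR called 73% and 98% of genes changed by 1 and 2 on the log2 scale (100 each), and also 18 unchanged genes. For the difference from all other *Sprr1a*-low neurons it called 67.3% and 79% (of 98 and 100), and also 16 unchanged genes. Sex pairs the libraries in only 2 pairs (correlation 0.144 over 11973 genes). Gene positions are from GENCODE (GRCm38). Intervals cover counting error only.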

Additional observations from a re-analysis of the deposited data

Results flagged for a closer look

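The CCI effect of the genes named here differed between *Dcn Tmc3* neurons and other neurons by the test of the difference itself, given as the log2 fold change in members minus that in the comparator. Against *Col25a1 Slc5a7* neurons these were *Gm4208* (5.46), *Nrgn* (4.21), *Gstm2* (2.86), *Ifitm3* (2.68), *Ctxn3* (-3.58), *Nts* (-3.24), *Socs1* (-1.99), and *Ptprt* (-1.78). *Ifitm3*, a membrane protein of the interferon response, had log2 fold changes of 0.82 in members and -1.83 in *Col25a1 Slc5a7* neurons. *Gm4208* had 2 UMIs over sham members and 64 over CCI members (ratio 72.6, exact interval 19.3 to 612), with 97.8% and 94.4% of the CCI UMIs in 5 cells of each library, and *Nrgn* had 2 and 41 (46.5, 12.1 to 397), all of them in Male-CCI for the CCI group. With doublet-scored cells left out, 1 gene was called against *Col25a1 Slc5a7* neurons, whose CCI libraries held 23 cells each. With a library left out, calls ended for *Gstm2* without Male-Sham (adjusted p = 0.0634), *Nts* without Female-Sham (adjusted p = 0.185), *Nrgn*, *Ifitm3*, *Ctxn3*, and *Socs1* without Male-CCI (adjusted p = 0.115 to 0.983), and *Gstm2*, *Ctxn3*, *Nts*, *Socs1*, and *Ptprt* without Female-CCI (adjusted p = 0.051 to 0.13). The difference of *Nrgn* without Male-CCI was 0.24, and that of *Nts* without Female-Sham was -5.63. DESeq2 called none of these 8 genes (adjusted p = 0.0716 to 1.0).

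Against *Traf3ip3 Kcnv1* neurons the genes were *Nppb* (4.31), *Timp1* (3.92), *Gstm2* (2.70), *Ntm* (2.54), *Hpca* (1.16), *Ppm1j* (-3.13), *Ctxn3* (-2.88), *Trabd2b* (-1.82), and *Gna14* (-1.54). *Ctxn3* was 39.2, 16.6, 2.11, and 2.795 CPM in members, and doublet-scored members held 69.1% and 82.8% of its UMIs in the sham libraries. With a library left out, calls ended for *Gstm2*, *Ntm*, *Hpca*, *Trabd2b*, and *Gna14* without Male-Sham (adjusted p = 0.17 to 0.333), and *Timp1*, *Gstm2*, *Ntm*, *Hpca*, *Trabd2b*, and *Gna14* without Female-Sham (adjusted p = 0.0551 to 0.545), and DESeq2 did not call *Hpca*, *Trabd2b*, or *Gna14* (adjusted p = 0.146, 0.171, and 0.178).

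Against all other *Sprr1a*-low neurons they were *Timp1* (3.24), *Gstm2* (2.62), *Ly6c1* (2.12), *Rasgrf2* (1.90), *Cdkn1a* (0.72), *Serpina11* (-10.78), *Mrgprd* (-5.35), *Pvalb* (-4.12), and *Slc17a7* (-1.92). Fitted values of genes with 0 UMIs in a group, as *Serpina11*, depend on the prior count. Of these genes, *Rasgrf2* and *Slc17a7* were still called with doublet-scored cells left out. The sham UMIs of *Slc17a7* lay in few members, 35 of 56 in 1 cell of Male-Sham and 16 of 33 in 1 cell of Female-Sham. For *Pvalb* 1 cell held 131 of 204 UMIs in Male-Sham and 1 cell 70 of 97 in Female-Sham. The call of *Rasgrf2* was lost without Male-CCI (1.47, adjusted p = 0.103) and with DESeq2 (adjusted p = 0.111), and that of *Slc17a7* without Male-Sham (-1.59, adjusted p = 0.175), without Male-CCI (-0.86, adjusted p = 0.803), and with DESeq2 (adjusted p = 1.0). DESeq2 also did not call *Serpina11* or *Mrgprd* (adjusted p = 0.0588 and 0.234).

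Cells that met the *Dcn* rule above the *Sprr1a* limit, which no comparison used, were 15.9% of the *Dcn*-rule cells of Male-CCI and 24.4% of those of Female-CCI, against 0.559% and 0.585% in sham.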

How the results depend on the processing

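The 183 genes called for CCI against sham became 67 with DESeq2 (37 higher, 30 lower; 3380 genes had an adjusted p), 388 without the filter on low counts (194 and 194), 298 with sex as the replicate block (157 and 141), and 86 to 306 with 1 library left out (93 without Male-Sham, 86 without Female-Sham, 306 without Male-CCI, 109 without Female-CCI). The other settings gave 180 to 221. The split into higher and lower calls turned from 101 and 82 to 72 and 149 over members with 0 *Sprr1a* UMIs and to 76 and 123 with the rule on thinned cells, and the cause was not tested. With doublet-scored members left out 208 were called (113 and 95), of which 72 and 52 were among the original 101 and 82. Of single genes, *Gna14* changed sign without doublet-scored members (0.086, and 0.31 for its difference from *Traf3ip3 Kcnv1* neurons), and *Onecut2* over members with 0 *Sprr1a* UMIs (-0.73). For differences between populations, the counts of 13, 24, and 36 became 67, 110, and 75 without the filter on low counts, 1, 6, and 13 with DESeq2, 10 to 102, 7 to 198, and 48 to 133 with 1 library left out, and 1, 62, and 38 without doublet-scored cells. Shares of neurons were 4.14% and 4.91% in sham with at least 3 of the 5 genes, 2.78%, 3.69%, 1.75%, and 1.52% on thinned cells, and 1.09% and 1.1% in CCI with 0 *Sprr1a* UMIs. Settings of more neuronal than glial UMIs and of at least 10000 UMIs were added after seeing the data. Of named genes, sex as the replicate block ended the call of *Ly6e* (adjusted p = 0.0572), called *Npy1r* (adjusted p = 0.000298), and changed no other call. Other limits of the rule ended calls of *Sstr2*, *Ntsr2*, *Kcnc4*, *Usp18*, *Ddx60*, and *Ly6e* (at least 1 *Dcn* UMI), of *Onecut2*, *Bdnf*, *Kcnc4*, and *Csf1* (at least 4), and of *Ntsr2*, *Sema6a*, *Onecut2*, *Lpar3*, *Tubb6*, *Csf1*, *Ecel1*, *Nrp2*, *Nrp1*, and *Tgfb1* (at least 3 of the 5 genes), and more neuronal than glial UMIs those of *Mpped1*, *Bdnf*, *Psmb8*, *Usp18*, and *Ecel1*. Transcripts under 0.344 to 1.05 CPM were not detectable at this depth.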

Other observations

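Several called genes outside every list, chosen after their values were seen, concerned axon guidance and secreted signals. *Nrp2*, a receptor of semaphorins and vascular growth factors, was 16.4, 18.5, 45.2, and 28.3 CPM (log2 fold change of 1.09 ± 0.20 (SE), adjusted p = 0.0134), and its relative *Nrp1* was 12.9, 18, 27.2, and 26.2 CPM (log2 fold change of 0.76 ± 0.18 (SE), adjusted p = 0.0275). *Tgfb1*, the growth factor that decorin is known to bind, was 17.5, 23.96, 40.1, and 39.8 CPM (log2 fold change of 0.92 ± 0.15 (SE), adjusted p = 0.00492). *Fst*, the activin inhibitor follistatin, was 0.787, 0.688, 3.17, and 8.04 CPM (log2 fold change of 2.83 ± 0.56 (SE), adjusted p = 0.0117). *Serpina3n*, a secreted protease inhibitor, was 117, 135, 235, and 194 CPM (log2 fold change of 0.76 ± 0.102 (SE), adjusted p = 0.00186). In these 5 genes both CCI libraries lay above both sham libraries. Without doublet-scored members the change of *Nrp2* was 1.18, adjusted p = 0.104. Over members with 0 *Sprr1a* UMIs no gene of the 5 was called, with *Nrp2* (0.37, adjusted p = 0.437), *Nrp1* (0.59, adjusted p = 0.389), *Tgfb1* (0.11, adjusted p = 0.881), *Fst* (2.31, adjusted p = 0.0942), and *Serpina3n* (0.48, adjusted p = 0.0163), and on thinned cells calls ended for *Nrp2* (0.11, adjusted p = 0.903), *Nrp1* (0.44, adjusted p = 0.424), and *Tgfb1* (0.42, adjusted p = 0.334). Calls ended for *Nrp2*, *Nrp1*, *Tgfb1*, and *Fst* without Male-Sham (adjusted p = 0.0524 to 0.308), *Nrp2* and *Fst* without Female-Sham (adjusted p = 0.11 to 0.166), *Nrp2* and *Nrp1* without Male-CCI (adjusted p = 0.0753 to 0.126), and *Nrp1*, *Tgfb1*, and *Fst* without Female-CCI (adjusted p = 0.0524 to 0.183).

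*Rasgrf2*, an exchange factor of Ras and Rac, was 1.89, 1.15, 10.03, and 8.04 CPM (log2 fold change of 2.61 ± 0.37 (SE), adjusted p = 0.00186), and *Lmod1*, an actin nucleator best known from smooth muscle, was 13.1, 13.4, 23.8, and 36.3 CPM (log2 fold change of 1.15 ± 0.19 (SE), adjusted p = 0.00572). *Ly6g* had 0 UMIs in both sham libraries and 39 UMIs over both CCI libraries, 0, 0, 3.696, and 8.73 CPM, at least 29.5-fold higher against 3 UMIs over the group. *Chodl*, a membrane lectin, had 52 UMIs over sham and 0 over CCI, at least 7.64-fold higher in sham. Left-out libraries ended the calls of *Lmod1* and *Chodl* without Male-Sham (adjusted p = 0.0581 to 0.0759), *Lmod1* and *Chodl* without Female-Sham (adjusted p = 0.07 to 0.177), and *Lmod1* without Female-CCI (adjusted p = 0.0621).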
